A study of Mus musculus with 2 samples.

Results

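The genes Hdac1 to Hdac10 encode the zinc-dependent histone deacetylases of classes I and II, and their RNA was compared here between regulatory T cells (Treg) of 2 Stat3 genotypes. Treg are the CD4 T cells that restrain immune responses under the transcription factor Foxp3. Members were all probe sets that the platform annotation pairs with a single gene symbol from Hdac1 to Hdac10. This gave 17 probe sets of 10 genes, among 45101 probe sets in the table and 18193 genes with a probe set of their own. The data were 2 arrays, 1 per genotype, labelled Foxp3 Cre/wtS Stat3 fl/wt and Foxp3 Cre/wtS Stat3 fl/fl, and below they are called fl/wt and fl/fl. The donors of both were female mice aged 6 to 8 weeks, whose spleen and lymph node cells were sorted by FACS. Both carried Cre recombinase at 1 Foxp3 allele, so Cre is active only in cells that express Foxp3. They differ in having 1 or both Stat3 alleles flanked by loxP sites. Foxp3 is X-linked, so in heterozygous females only Treg that use the Cre-bearing X delete Stat3, and the labels do not say whether those cells were selected. The labels do not state how many mice stand behind each array. Neither genotype was replicated, so no difference below has an error between samples or a p-value.

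Histone deacetylases remove acetyl groups from lysines of histones and of other proteins, and histone acetyltransferases add them. Class I enzymes (Hdac1, Hdac2, Hdac3 and Hdac8) are mainly nuclear, and all but Hdac8 work inside large corepressor complexes. Class IIa enzymes (Hdac4, Hdac5, Hdac7 and Hdac9) have weak catalytic activity of their own, bind Mef2 transcription factors, and leave the nucleus when kinases phosphorylate them and 14-3-3 proteins bind. Class IIb enzymes (Hdac6 and Hdac10) are found mostly in the cytoplasm. In Treg, acetylation stabilises the Foxp3 protein, and deacetylases including Hdac6, Hdac7 and Hdac9 are known to limit Foxp3 function or to take part in it.

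The transcription factor Stat3, through which IL-6 and IL-10 signal, binds the word TTCNNNGAA, and the starts of the member genes were searched for it. RefSeq windows (build GRCm38.p6) of 300 bases, from 250 before a transcription start to 50 from it on, were at hand for 7 of the 10 genes, Hdac2, Hdac4, Hdac5, Hdac6, Hdac7, Hdac8 and Hdac9, in 11 windows. The word reads the same on either strand. It was found in 2 of the 11 windows, both of Hdac7, against 8.30% of all 32851 windows. These are shown because, of the 7 genes searched, only Hdac7 had the word. Capitals mark the word, and both windows lie on the minus strand. In the first window, at chr15:97831718-97832017, the words begin 141 and 46 bases before the start. In the second, at chr15:97814814-97815113, the word begins 222 bases before the start.
Hdac7 first window: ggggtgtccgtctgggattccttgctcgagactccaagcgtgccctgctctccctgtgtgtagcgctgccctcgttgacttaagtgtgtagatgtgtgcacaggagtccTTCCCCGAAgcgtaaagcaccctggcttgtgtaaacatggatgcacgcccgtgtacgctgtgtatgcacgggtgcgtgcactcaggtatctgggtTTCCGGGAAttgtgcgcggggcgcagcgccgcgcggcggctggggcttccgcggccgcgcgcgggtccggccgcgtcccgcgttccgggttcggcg
Hdac7 second window: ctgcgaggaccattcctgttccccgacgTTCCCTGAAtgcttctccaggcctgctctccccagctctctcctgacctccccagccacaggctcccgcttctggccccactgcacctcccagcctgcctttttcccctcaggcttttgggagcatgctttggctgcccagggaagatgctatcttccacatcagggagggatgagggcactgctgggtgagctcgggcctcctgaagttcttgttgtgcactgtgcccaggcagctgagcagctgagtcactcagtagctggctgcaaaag
A match is a description of the letters and does not show binding. The other 2 Hdac7 windows and all windows of the other 6 genes lack the word within these bases. The Hdac7 window at chr15:97831446-97831745 overlaps the first one shown, so the windows are not separate draws. The GC box word GGGCGG, searched on both strands and absent from both windows shown, was in 5 of the 11 windows against 35.7% of all windows. The Hdac4 and Hdac6 windows each held it 5 times. Counts of CG dinucleotides ran from 0 in a Hdac9 window to 36 in the Hdac2 window, with 5 of the 11 windows below the median of 7 over all windows.

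Values are GCRMA log2 expression, a scale on which a step of 1 is 2-fold. A probe set that reached log2 5 in either array is called measured, since dimmer values have no order. All 10 genes were measured, through 13 of the 17 probe sets, each of them above log2 5 in both arrays. The 4 probe sets under log2 5 in both arrays were 1 each of Hdac2, Hdac4, Hdac9 and Hdac10, and every one of these genes had a brighter probe set. A gene is read below by its brightest probe set unless the text says otherwise.

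**Figure D1:**
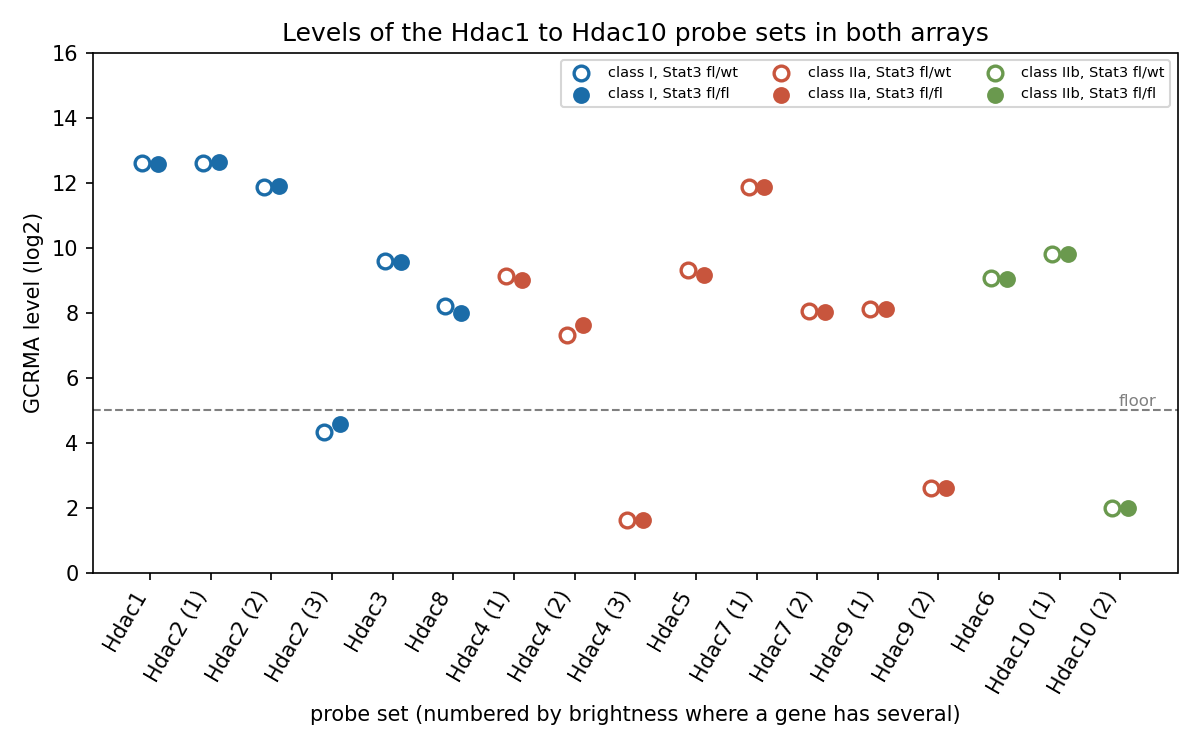
GCRMA level (log2) of all 17 probe sets of Hdac1 to Hdac10, with open circles for the fl/wt array and filled circles for the fl/fl array, coloured by class; the dashed line is the floor at log2 5. Both circles of a probe set nearly coincide, and 4 probe sets lie under the floor.

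Among the class I enzymes, Hdac1 and Hdac2, the close relatives that share the Sin3, NuRD and CoREST complexes, gave the highest readings. Hdac1 stood at log2 12.61 in the fl/wt array and 12.59 in the fl/fl one. Its difference, fl/fl minus fl/wt, was -0.020 on the log2 scale, a ratio of 0.986. The brightest Hdac2 probe set stood at 12.60 in the fl/wt array and 12.65 in the fl/fl one, a difference of 0.046. The second Hdac2 probe set read 11.86 and 11.91, and its difference of 0.044 was nearly equal to that of the first. The third Hdac2 probe set was under the floor, at 4.33 and 4.57. The measured probe sets of Hdac2 were thus slightly higher in fl/fl, by about as much each.

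Hdac3, the catalytic subunit of the NCoR complex, read 9.59 in the fl/wt array and 9.56 in the fl/fl one. The difference was -0.026. Hdac3 was read only by a probe set whose suffix marks probes shared between transcripts, as was the brightest reading of Hdac2. Hdac8, the class I enzyme that acts outside these complexes and deacetylates the cohesin subunit Smc3, read 8.22 in the fl/wt array and 8.00 in the fl/fl one. Its difference of -0.22, a ratio of 0.857, was the farthest from 0 among the 10 genes read by their brightest probe set. Hdac8 had no second probe set.

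Among the class IIa enzymes, Hdac7, which is abundant in the T lineage and controls gene programmes in thymocytes, had the highest reading. Its brightest probe set read 11.86 in the fl/wt array and 11.87 in the fl/fl one, a difference of 0.0073. The second Hdac7 probe set read 8.06 and 8.02, a difference of -0.039. Of the 7 genes whose starts were searched, Hdac7 was the one with the Stat-type words printed above, in some of its windows only. Neither binding of Stat3 to these words nor which of the starts these cells use was tested.

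Hdac4 gave conflicting readings. Its brightest probe set read 9.12 in the fl/wt array and 9.01 in the fl/fl one, a difference of -0.11. The second read 7.31 in the fl/wt array and 7.62 in the fl/fl one, a difference of 0.30 in the opposite direction, and the third was under the floor at 1.61 and 1.62. The measured Hdac4 probe sets stood 0.41 apart in their differences, so the direction for this gene depends on the probe set. Hdac5, a class IIa enzyme studied mostly in muscle and heart, read 9.33 in the fl/wt array and 9.18 in the fl/fl one. Its difference was -0.15, a ratio of 0.899, from its single probe set. Hdac9, whose loss is known to raise Treg number and suppressive function in mice, read 8.11 in the fl/wt array and 8.13 in the fl/fl one, a difference of 0.021. Its other probe set was under the floor at 2.61 and 2.62.

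The class IIb enzymes were close to equal between the arrays. Hdac6, which deacetylates tubulin and the chaperone Hsp90, read 9.07 in the fl/wt array and 9.05 in the fl/fl one, a difference of -0.023. Hdac10, known as a polyamine deacetylase, read 9.79 in the fl/wt array and 9.81 in the fl/fl one, a difference of 0.014. The second Hdac10 probe set was under the floor at 1.98 and 2.0.

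The classes overlapped in level in both arrays. The median over the 4 class I genes was log2 11.09 in the fl/wt array and 11.07 in the fl/fl one, from 8.22 to 12.61 in fl/wt. Over the 6 class II genes it was 9.23 in the fl/wt array and 9.11 in the fl/fl one, from 8.11 to 11.86 in fl/wt. Class I had the higher reading in 17 of 24 pairs of a class I with a class II gene in fl/wt, and in 16 of 24 in fl/fl. The class I median rests on a wide gap between its members, with Hdac1 and Hdac2 near the top and Hdac8 near the bottom of the 10 readings.

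Readings of different probe sets also depend on how well their probes bind, so this order is not an order of transcript number. Probe sets of a single gene also stand apart in level, and how much of that comes from binding was not tested. The measured probe sets of Hdac7 stood 3.83 apart in mean level, farther than the class medians, which differed by 1.87 in the fl/wt array and 1.96 in the fl/fl one. Over 4310 genes with at least 2 measured probe sets, the SD of mean levels between probe sets of a gene was 2.07. In descending order in fl/wt the readings were Hdac1, Hdac2, Hdac7, Hdac10, Hdac3, Hdac5, Hdac4, Hdac6, Hdac8 and Hdac9. The widest step between neighbours in this order, 2.07 between Hdac7 and Hdac10, was about as wide as that SD, and the other steps were narrower. In fl/fl the neighbours Hdac1 and Hdac2, Hdac4 and Hdac6, and Hdac8 and Hdac9 changed places.

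**Figure D2:**
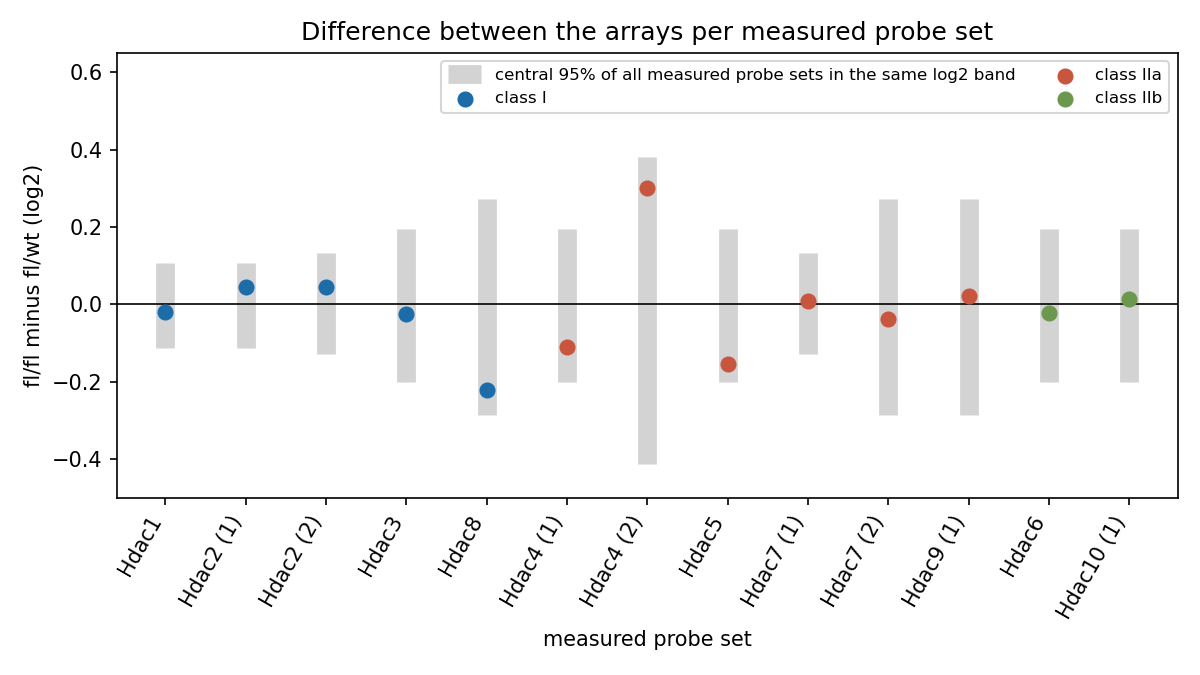
Difference between the arrays, fl/fl minus fl/wt (log2), for the 13 measured probe sets of Hdac1 to Hdac10, coloured by class. Grey bars span the central 95% of differences of all measured probe sets in the same whole-log2 band of mean level, and all 13 points lie within their bars.

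Across the 10 deacetylase genes, 4 were higher and 6 lower in fl/fl, with a median difference of -0.021, against -0.0045 over all 9773 measured genes. The median was -0.023 over class I and -0.0077 over class II. These signs and medians depend on the scaling. Quantile normalisation and loess kept 4 genes higher and 6 lower. With each array centred on the median of its table, 1 gene was higher and 9 lower. Those table medians, 3.47 in fl/wt and 3.50 in fl/fl, lie under the floor. With this centring the median difference was -0.053 over the 10 genes, -0.055 over class I and -0.039 over class II. That of all measured genes moved to -0.036. With genes read by the median of their probe sets the class II median was -0.00091. The median size of the difference was 0.024 for the 10 genes and 0.053 for all measured genes. Of the 13 measured probe sets, 1 was past 1.2-fold higher in fl/fl, against 3.16% of all 16761 measured probe sets, and 0 were past 1.2-fold lower, against 3.62%. The probe set past 1.2-fold was the second of Hdac4, and it was at a ratio of 1.23. With 32 added on the linear scale, 0 member probe sets were past 1.2-fold higher. At gene level 0 of 10 members were past 1.2-fold in either direction, against 2.37% of all measured genes higher and 2.85% lower. Past 1.5-fold there were 0 member probe sets, against 0.274% higher and 0.477% lower.

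The size of a difference depended on the level, and the differences farthest from 0 came from readings under log2 10. In the band from log2 8 to 9, which holds Hdac8 and Hdac9, the central 95% of all 2357 measured probe sets ran from -0.29 to 0.27. Hdac8, at -0.22, lay inside that range. In the band from 9 to 10, which holds Hdac3, Hdac5, Hdac6, Hdac10 and the brightest Hdac4 reading, it ran from -0.20 to 0.19, and Hdac5 at -0.15 lay inside. In the band from 7 to 8 it ran from -0.41 to 0.38, and the second Hdac4 probe set at 0.30 lay inside. In the band from 12 to 13, which holds Hdac1 and the brightest Hdac2 reading, it ran from -0.11 to 0.11.

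**Figure D3:**
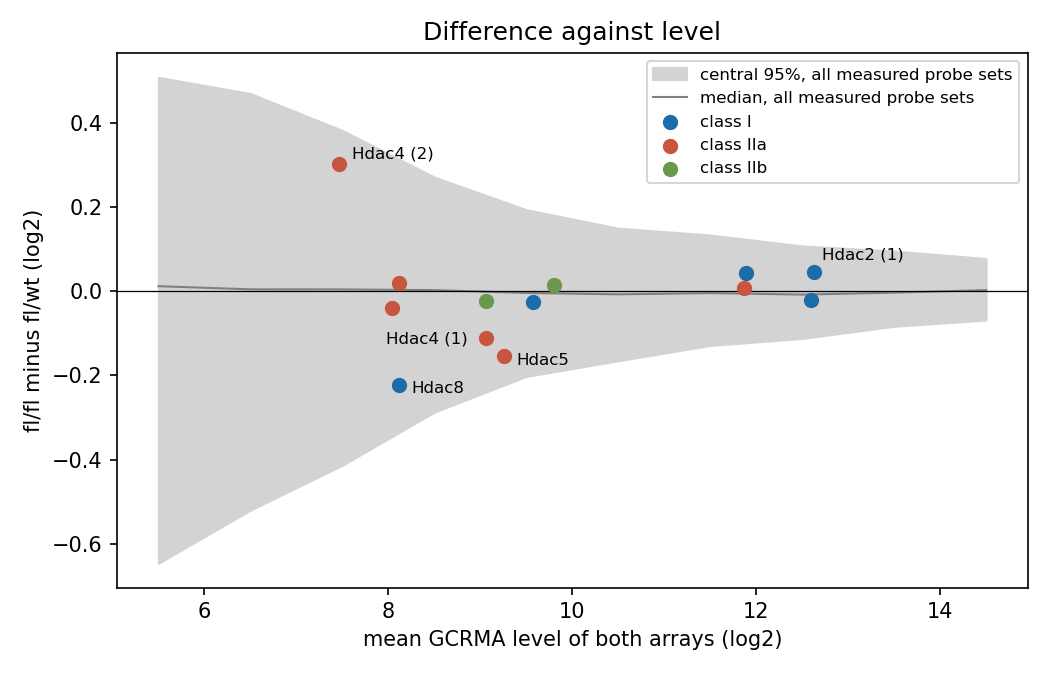
Difference fl/fl minus fl/wt (log2) against the mean level of both arrays (log2) for the 13 measured member probe sets, coloured by class. The grey area is the central 95% and the grey line the median of all measured probe sets by band of level; the range narrows from log2 5, where the plot begins, to the bright end, and Hdac4, Hdac5 and Hdac8 lie farthest from 0 among the members.

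The spread between probe sets of a gene gives a further scale for these differences. Its SD over the 4310 genes was 0.14 on the log2 scale. By their brightest probe set, 2 of the 10 members, Hdac5 and Hdac8, differed by more than that, against 16.5% of all measured genes, and both rest on 1 probe set. Of the 3 members with 2 measured probe sets, Hdac2 had both in the same direction, while those of Hdac4 and Hdac7 differed in sign. Differences of both signs were also found in 61.4% of the 4310 genes.

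Genes that work with the deacetylases were read in the same way. Of 94 such genes, 85 were measured, with 42 higher and 43 lower in fl/fl and a median of -0.0047. Over all 9773 measured genes 4644 were higher and 5129 lower, the split to set beside the counts of each list below. By brightest probe set 0 of the 85 were past 1.2-fold higher and 2 lower (2.35%), against 2.37% and 2.85% of all measured genes. These were Camk1 and Gps2. Beyond the central 95% of their band of level were 6 of the 85 genes (7.06%), against 5.34% of all measured genes: Camk1, Ep300, Gps2, Gse1, Sap30 and the 14-3-3 gene Ywhah (-0.10).

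No measured gene of the Sin3, NuRD or CoREST complexes, which carry class I enzymes, was past 1.2-fold by its brightest probe set. Dimmer probe sets of Chd4 (NuRD) and Zmym2 (CoREST) were past it higher, at 0.35 and 0.40, and none was past it lower. The brightest probe sets of these genes differed by -0.069 and 0.070. In the Sin3 complex 9 of 14 measured genes were higher and 5 lower, and the median was 0.0054. Its outermost genes were Sap30 (0.20), a subunit that binds Sin3 and Hdac1, and Brms1 (-0.11), whose other probe set differed by 0.024. In the NuRD complex, which adds nucleosome remodelling, 4 of 11 were higher and 7 lower, and the median was -0.018, and the outermost were its subunits Mta1 (0.10) and Mta2 (-0.10). In the CoREST complex, which joins deacetylases to the demethylase Kdm1a, 5 of 8 were higher and 3 lower, and the median was 0.025. Gse1 (0.21), whose other probe set differed by -0.18, and Hmg20b (-0.18) were outermost there.

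The partners of Hdac3 and of class IIa included both genes past 1.2-fold by their brightest probe set. All 4 measured genes of the NCoR complex were lower in fl/fl, with a median of -0.067, and Tbl1xr1 (-0.033) was nearest to 0. Other probe sets of Tbl1x and Tbl1xr1 went the opposite way, by 0.15 and by up to 0.22. The scaffold gene Ncor1 was not analysed here, since no probe set was paired with it alone. Gps2, a subunit of this complex, read 9.25 in the fl/wt array and 8.92 in the fl/fl one, a difference of -0.33 from a single measured probe set.

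Of the 20 measured class IIa partners, 8 were higher and 12 lower, and the median was -0.0093. Camk1, a calcium-dependent kinase of the family that phosphorylates class IIa enzymes, read 6.93 in the fl/wt array and 6.35 in the fl/fl one, a difference of -0.58. Its other measured probe set differed by 0.79 in the opposite direction, so no direction can be given for Camk1. On the higher side Ankra2, an ankyrin repeat protein that binds class IIa enzymes, differed by 0.13. Dimmer probe sets of Camk1d and Camk2d were past 1.2-fold, at 0.30 and -0.49, while their brightest differed by -0.011 and 0.034. Mef2a, a transcription factor that class IIa enzymes bind, differed by -0.20, while its 3 other probe sets differed by 0.014 to 0.054. Mef2d, of the same family, read 10.41 in the fl/wt array and 10.39 in the fl/fl one, while its 2 other probe sets differed by -0.36 and 0.051. Mef2a, Mef2d, Ywhah and Tbl1x were named after their values were seen. So was every gene of the related lists named only for a dimmer probe set past 1.2-fold.

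Among the other enzymes and readers of acetylation, Hdac11, the class IV deacetylase, was under the floor in both arrays at 4.43 and 4.64. Of the 7 NAD-dependent sirtuins 4 were higher and 3 lower, and the median was 0.022, with a range from Sirt5 (-0.091) to Sirt4 (0.21). Sirt4 was dim, at 5.22 in fl/wt. Of 13 histone acetyltransferases 10 were higher and 3 lower, and the median was 0.021. A dimmer probe set of Kat7 differed by -0.54, past 1.2-fold, while its brightest differed by -0.022. Ep300, the acetyltransferase p300 that acetylates Foxp3, read 11.30 in the fl/wt array and 11.45 in the fl/fl one, a difference of 0.16. Kat5, the acetyltransferase Tip60 that works with Hdac7 on Foxp3, was lowest at -0.14, and its other probe set differed by -0.022. Of 10 readers of acetylated lysine 4 were higher and 6 lower, and the median was -0.027. They ranged from Brd9 (-0.12) to Mllt3 (0.049), whose 2 other probe sets differed by 0.042 and 0.34. Dimmer probe sets of Brd7 and Brpf3 were also past 1.2-fold, at 0.35 and -0.45, while their brightest differed by -0.041 and -0.056.

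**Figure D4:**
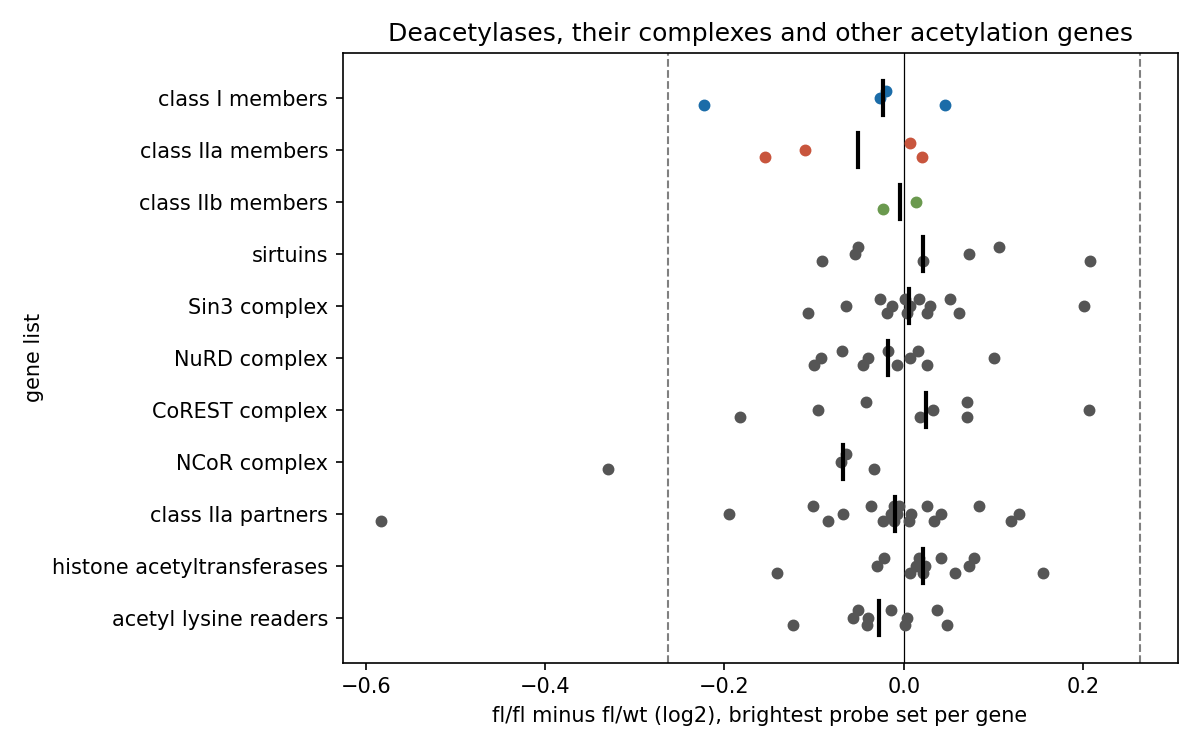
Difference fl/fl minus fl/wt (log2) of each measured gene, read by its brightest probe set, in the 3 deacetylase classes and 8 lists of related genes; black bars are list medians and dashed lines mark 1.2-fold in either direction. Camk1 and Gps2 lie past the left line and no gene lies past the right one.

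Stat3, the gene targeted here, read 11.99 in the fl/fl array by its brightest probe set and differed by -0.0083 from fl/wt. Its 2 other measured probe sets differed by -0.019 and -0.083, and another was under the floor at 2.26 and 2.36. The sources used here do not say whether any of these probes lie in the deleted exons. These readings therefore do not check the labels, and every direction above rests on the labels alone. Of 10 Treg markers 8 were measured, with a summed level of log2 16.52 in the fl/wt array and 16.48 in the fl/fl one. In fl/wt they read from 12.08 (Ikzf4) to 14.91 (Ctla4). Their median difference was -0.034, from Il2ra (-0.10) to Ikzf4 (0.096), but Foxp3 itself was under the floor at 4.09 and 3.52. Of 6 T cell markers 5 were measured, with summed levels of 16.14 and 16.16 and a median difference of 0.022, from Cd4 (-0.061) to Cd3e (0.088). Of 7 myeloid markers 6 were measured, with a summed level of log2 15.09 in the fl/wt array and 15.08 in the fl/fl one and a median difference of -0.017. Csf1r read 13.99, Cd68 12.67, Lyz2 12.59, Adgre1 12.04 and Cd14 10.56 in the fl/wt array, and Itgam was under the floor in both. The outermost myeloid differences were those of Spi1 (0.23) and Lyz2 (-0.071). Of 7 B cell markers 5 were measured, with summed levels of 11.08 and 10.99 and a median difference of -0.13, and Pax5 was under the floor. The B cell genes were lower in 4 of 5 cases, from Ms4a1 (-0.34, its other probe set 0.28) to Cd79a (0.16). Of 6 CD8 and NK markers 4 were measured, with summed levels of 9.77 and 9.89 and a median difference of 0.033, and Ncr1 was under the floor. Cd8b1 read 8.54 in the fl/wt array and differed by 0.27, past 1.2-fold, and Cd8a read 8.29 and differed by -0.028. These arrays read bulk samples, in which fewer cells of a type and less RNA per cell cannot be told apart. The part of other cells in the deacetylase readings was not tested.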

How the data were processed

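Log2 expression values of 45101 probe sets on 2 Affymetrix arrays, 1 per Stat3 genotype, were deposited by the authors. GCRMA, which subtracts a sequence-based background and normalises arrays together, is named in the submitters' processing notes; the sources used here give neither its version nor its settings. It compresses dim values, so differences near the floor are uncertain. The scale was read from the values, which ran from 0.53 to 16.9. The number of arrays limits the precision.

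From these values, probe sets of 1 gene symbol (34958) were kept without controls, and all 17 member probe sets matched RefSeq by Entrez identifier. Values under log2 5 were set to 5 in differences. A gene was read by its brightest probe set (highest mean of both arrays). Medians and counts were computed in Python 3.11.15 with pandas 2.3.3 and numpy 2.4.6, and loess curves with statsmodels 0.14.6 (span 0.3). The procedure was tested on simulated data, with shifts larger than any member difference and calls past 1.5-fold. The simulated noise was smaller than the SD between probe sets of a gene. That test does not show how well differences of the size reported here are recovered. Bands of level are whole log2 units of the mean of both arrays. No coordinates of probe sets are given, since no genome build is named for them. All member probe sets are reported, and of each related-gene list the genes with the largest positive and negative difference are named. Some further genes were named after their values were seen. Members, lists and the words searched were chosen with earlier results of these data known. Alternatives covered the floor, an offset of 32 on the linear scale, 3 scalings, the choice of probe set and the fold. One listed gene is not reported here.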

Additional observations from a re-analysis of the deposited data

How the results depend on the processing

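No paired analysis was possible because each genotype has 1 array. A value is said to have moved when it shifted by at least 0.14 on the log2 scale, the SD between probe sets of a gene, or, for a count, by more than 1.5 times. Of 85 values of the class medians, levels and counts under the alternatives, 6 moved. Sign was compared only for the median differences, and 0 of them changed sign. With no floor, or with 32 added, every member probe set counts as above the floor, so those counts were fixed by the setting. The median differences are far smaller than 0.14, so the number of moved values says nothing of their stability. Over the alternatives they ran from -0.053 to -0.015 for all members, -0.055 to -0.019 for class I and -0.039 to -0.00091 for class II. The count of member probe sets past 1.2-fold higher went from 1 to 0 with 32 added on the linear scale, and to 0 with a threshold of 1.5-fold. The class I median level was 10.91 in fl/wt and 10.92 in fl/fl with a gene read by the median of its probe sets. It was 11.86 and 11.91 with shared-suffix probe sets left out, which removes the only Hdac3 probe set. Of 89 values of single member genes, 1 moved and 5 changed sign. Those under a changed or dropped floor could not differ, since every gene reading lay above all floors tried. The count is therefore no measure of stability. The Hdac4 difference was 0.096 as the median of its probe sets. Centring each array on the median of its whole table shifted the median of all measured genes by -0.031, and gave -0.024 for Hdac7, -0.011 for Hdac9 and -0.018 for Hdac10. Hdac7 was also of opposite sign, at -0.016, as the median of its probe sets. Over all alternatives Hdac8 ran from -0.25 to -0.20, Hdac5 from -0.19 to -0.15 and Hdac2 from 0.014 to 0.050. Signal over background limits the 4 member probe sets under the floor, whose differences have no meaning.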
